A study of Mus musculus with 2 samples.

Results

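The mir-26 family of the mouse consists of 3 microRNA genes, Mir26a-1, Mir26a-2 and Mir26b, each lying inside a gene for a small C-terminal domain phosphatase. The members were chosen by annotated symbol and host gene, and the measured values named with that choice are their sense counts in both libraries, taken with earlier results of these tables known. Their levels and ratios are therefore given as a description. They are 3 of the 2202 microRNA genes in the tables, and all 3 had at least 10 counts in each library, the minimum used here for a gene to be called detected, which 384 genes met. The samples were hippocampal tissue, labelled as a layer of hippocampus, from male B6CASTF1/J mice, an F1 hybrid, aged 18 to 20 months. MicroRNA sequencing of total RNA gave 2 libraries, biological replicates 1 and 2, which form 1 group. No treatment, genotype, age or sex was therefore compared. The labels give the replicates separate tissue entries and a common donor entry and do not state that they came from separate animals, so the spread below may be partly technical.

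MicroRNAs are cut from hairpin transcripts and guide silencing proteins to messenger RNAs that match the seed, bases 2 to 8 of the mature strand. The miR-26 strand is known to repress Ezh2, the histone methyltransferase of Polycomb complexes, and Rest, the repressor of neuronal genes outside neurons. The host phosphatases Ctdsp1, Ctdsp2 and Ctdspl act on RNA polymerase II and are recruited by REST. The miR-26 strand is known to rise as neural progenitors become neurons. Repression of the host Ctdsp2 by miR-26 has been described, but was not tested in these libraries. In the mouse annotation used here, the mir-26 gene in Ctdsp2 is Mir26a-2.

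The mature sequences show what the family shares and what tells its genes apart in a count table. They are given 5′ to 3′ as in RefSeq (GRCm38.p6), with the seed in capitals. The 5p strand of miR-26a is the same from Mir26a-1 and Mir26a-2.
miR-26a-5p: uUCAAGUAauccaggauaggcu
miR-26b-5p: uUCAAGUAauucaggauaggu
miR-26a-1-3p: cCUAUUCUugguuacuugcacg
miR-26a-2-3p: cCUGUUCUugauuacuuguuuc
miR-26b-3p: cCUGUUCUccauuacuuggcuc

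The seed UCAAGUA of the 5p strands occurred in no other gene among 1738 mature entries. Counted from 1 at the 5′ end, miR-26a-5p and miR-26b-5p differed at 2 of 21 positions, C11U and C21U, with the miR-26a base given first. The 3p strands varied more. Those of Mir26a-1 and Mir26a-2 differed at 6 of 22 positions, including A4G within the seed, so miR-26a-1-3p has a seed found in no other mature entry. The seed CUGUUCU was common to miR-26a-2-3p, miR-26b-3p and the 3p strands of 2 genes outside the family.

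The hairpins follow with the mature strands in capitals, to show where a read could fit more than 1 gene. Hairpin coordinates and sequences were identical in RefSeq and in GENCODE M21 on mm10.
Mir26b: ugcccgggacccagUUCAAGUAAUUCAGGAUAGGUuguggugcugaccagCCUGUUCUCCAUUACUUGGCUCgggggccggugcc
Mir26a-1: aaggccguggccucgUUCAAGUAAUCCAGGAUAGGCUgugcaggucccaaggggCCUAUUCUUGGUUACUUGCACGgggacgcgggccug
Mir26a-2: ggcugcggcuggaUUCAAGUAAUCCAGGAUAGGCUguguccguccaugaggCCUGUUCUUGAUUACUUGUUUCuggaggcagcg

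Mir26a-1 and Mir26a-2 have an unbroken stretch of 25 bases in common, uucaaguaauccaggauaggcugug, which holds the whole 5p strand. In each, 6 windows of 20 bases (of 71 in Mir26a-1 and of 65 in Mir26a-2) recurred in the other. Mir26b had no such window among the 2202 annotated hairpins, and its longest stretch in common with any of them was 11 bases. Over whole hairpins, identity was 72.5% between Mir26a-1 and Mir26a-2, 68.5% between Mir26a-1 and Mir26b and 66.3% between Mir26a-2 and Mir26b. Predicted folding energies were -43.5 kcal/mol for Mir26b, -49.4 for Mir26a-1 and -44.5 for Mir26a-2. A read of the miR-26a 5p strand fits both Mir26a genes, and reads that mapped to several places were assigned to no gene in these tables. The counts of Mir26a-1 and Mir26a-2 therefore leave such reads out and are not the level of miR-26a-5p, whereas neither mature strand of Mir26b occurs in another annotated hairpin. Which strand a counted read came from is not recorded.

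The 3 genes lie in introns of their hosts whose flanking exons have the same sizes. The host sequences were not aligned. Mir26b (ENSMUSG00000065468.1) lies on chromosome 1 from 74394310 to 74394394 of mm10, in intron 4 of Ctdsp1. Mir26a-1 (ENSMUSG00000065513.1) lies on chromosome 9 from 119031796 to 119031885, in intron 5 of Ctdspl. Mir26a-2 (ENSMUSG00000065430.1) lies on chromosome 10 from 126995530 to 126995613, in intron 5 of Ctdsp2. All are on the plus strand, as are the hosts. In the principal transcript of each host, the exon before the intron has 57 bases and the exon after it has 93, and the intron falls between whole codons, after 378 of 783 coding bases in Ctdsp1, 426 of 828 in Ctdspl and 408 of 810 in Ctdsp2. The introns differ in size, with 564 bases in Ctdsp1, 1946 in Ctdsp2 and 3283 in Ctdspl. Mir26a-2 starts 1621 bases after the upstream exon and ends 241 before the downstream one, and Mir26b lies 234 and 245 bases from its exons. In 2 other annotated Ctdsp2 transcripts, of 3 exons each, Mir26a-2 overlaps an exon by 1 base.

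**Figure D1:**
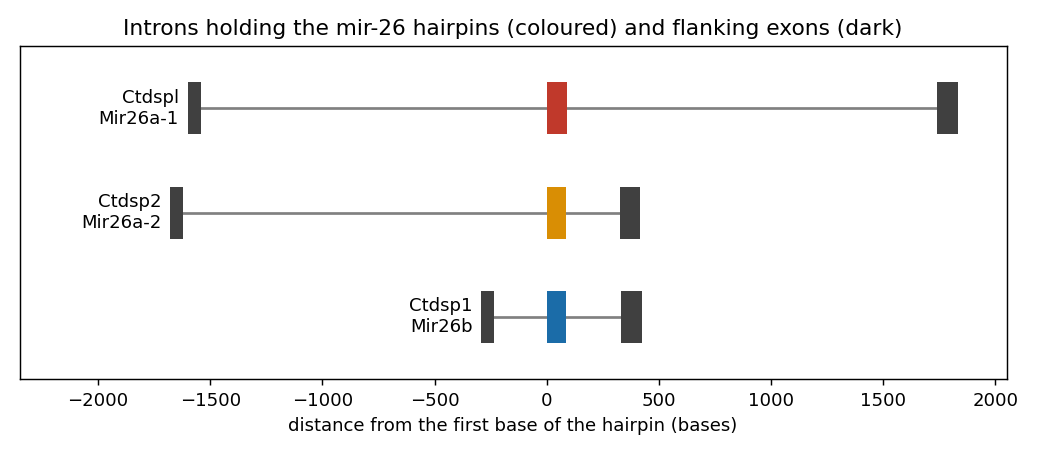
The intron that holds each mir-26 hairpin, drawn to scale as distance in bases from the first base of the hairpin, with the hairpin in colour and the exons on both sides as dark boxes. The flanking exons have 57 and 93 bases in all 3 hosts, and the introns measure 564 (Ctdsp1), 1946 (Ctdsp2) and 3283 bases (Ctdspl).

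Match sites for the miR-26 seed were searched on the messenger strand, as the letters TACTTGA. The search covered the 3′ UTR of the principal transcripts of the hosts, of the known targets and of Ctdspl2, which holds no mir-26 gene. Ctdsp2 held 1 match in 3483 bases, and Ctdsp1 (1701 bases) and Ctdspl (3349 bases) held none of these letters. Ezh2 (402 bases), Rest (3448 bases) and Ctdspl2 (3014 bases) held 1 each. Among 3′ UTRs of like length, within 1.2 times, a match was present in 23.6% for Ctdsp2, 3.30% for Ezh2, 23.1% for Rest and 20.1% for Ctdspl2. Of 20755 genes searched, 9.07% had one. The sites of the host and of the chromatin regulators are shown with the match in capitals.
Ctdsp2: aagtgttgctctTACTTGAtttgccaaatg
Ezh2: ttgaataaagaaTACTTGAacttgttgttg
Rest: ggcttagtaaatTACTTGAagaatttgcct

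Mir26b was among the most counted microRNA genes of the hippocampal tissue. It had 73643 sense counts in replicate 1 and 53313 in replicate 2, which is 19595 and 9522 counts per 1000000 sense counts over all microRNA genes (CPM), or 14558.5 ± 7122 CPM (SD, n = 2 here and for all means). Its share of counted reads was 1.96% in replicate 1 (Wilson 95% interval 1.95 to 1.97%) and 0.952% in replicate 2 (0.944 to 0.960%), and it ranked 11 and 23 among all genes. In bulk tissue, fewer cells of a type and less RNA per cell cannot be told apart. In the order of mean CPM Mir26b stood at rank 13, between Mir132, an activity-induced neuronal microRNA with 16652 ± 1642 CPM, and Mir191 with 13832.8 ± 2282 CPM. Its distance to either was smaller than its own spread.

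The Mir26a genes had low counts. Mir26a-1 had 650 counts in replicate 1 and 39 in replicate 2, or 172.9 and 6.97 CPM (mean 89.96 ± 117.4), with ranks 161 and 335. Mir26a-2 had 440 and 70 counts, or 117.1 and 12.5 CPM (mean 64.8 ± 73.9), with ranks 177 and 295. For both genes replicate 1 was high and replicate 2 low, and the SD was larger than the mean. The intervals on their shares of counted reads did not overlap between libraries, at 0.0160 to 0.0187% against 0.000510 to 0.000952% for Mir26a-1 and 0.0107 to 0.0129% against 0.000990 to 0.00158% for Mir26a-2. The same held for 63.8% of all detected genes. By mean CPM, Mir26a-1 stood between Mir340 (91.7 ± 29.7) and Mir665 (89.5 ± 35.9), and Mir26a-2 between Mir206 (65.9 ± 19.5) and Mir351 (64.4 ± 3.399). No gap between these neighbours, nor the gap between the Mir26a genes themselves, exceeded the spread between replicates. The hairpins differ little in length (84 to 90 bases) and CPM were not divided by it.

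**Figure D2:**
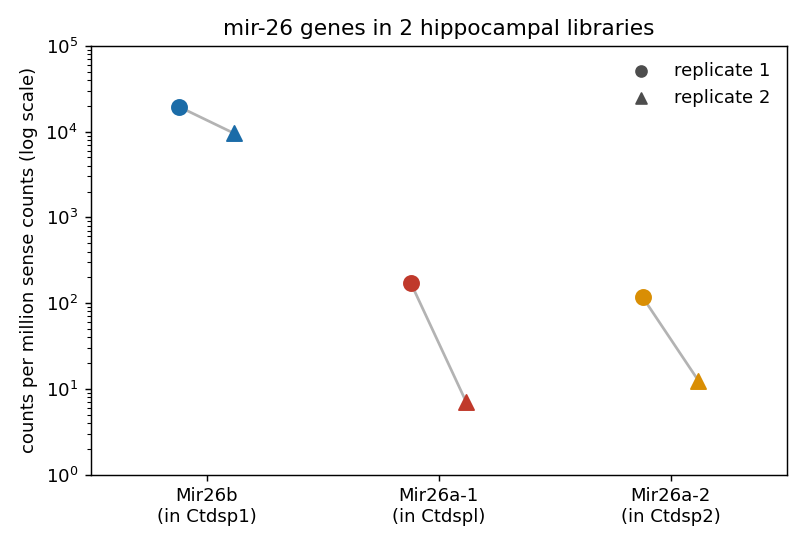
Counts per 1000000 sense counts (CPM) on a log axis for each mir-26 gene, with replicate 1 as a circle and replicate 2 as a triangle joined by a line. Mir26b sits at 19595 and 9522, far above Mir26a-1 (172.9 and 6.97) and Mir26a-2 (117.1 and 12.5), and replicate 1 is the higher point for all 3 genes.

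Summed over the family, the libraries held 74733 and 53422 counts, or 1.99% and 0.954% of counted reads (mean 1.47% ± 0.731). Nearly all of the sum was Mir26b, with 98.5% in replicate 1 (Wilson 95% interval 98.4 to 98.6%) and 99.8% in replicate 2 (99.7 to 99.8%). The Mir26a genes together had 1090 and 109 counts, which equals 0.0200% and 0.00145% of the reads that mapped to several places in the same libraries (5458072 and 7527048). The tables do not split those reads by microRNA.

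The balance of these counts within the family, which needs no scaling between libraries, also differed. For every 1000 Mir26b counts there were 8.83 Mir26a-1 counts in replicate 1 and 0.731 in replicate 2, and 5.97 and 1.31 Mir26a-2 counts. The order of the Mir26a genes was opposite in the libraries. Mir26a-1 held 59.6% of the counts of both (interval 56.7 to 62.5%) in replicate 1 and 35.8% (27.4 to 45.1%) in replicate 2. These intervals hold counting error alone and treat each read as a separate molecule, and no source used here names molecular identifiers. No replicate error stands behind either split.

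**Figure D3:**
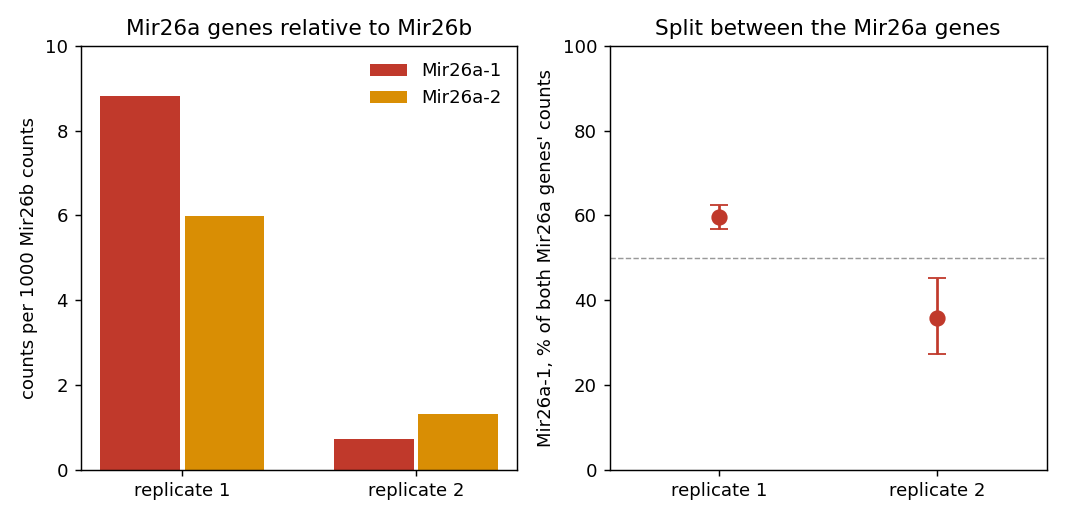
Left, bars of Mir26a-1 and Mir26a-2 counts per 1000 Mir26b counts in each library; right, Mir26a-1 as a percentage of the counts of both Mir26a genes, with Wilson 95% intervals and a dashed line at equal counts. Mir26a-1 is the larger of the pair in replicate 1 (59.6%) and the smaller in replicate 2 (35.8%).

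All 3 genes were higher in replicate 1 after scaling for library size and composition (TMM). Mir26b was 2.56-fold higher (exact 95% interval 2.54 to 2.59), Mir26a-1 was 30.9-fold higher (22.4 to 43.9) and Mir26a-2 was 11.7-fold higher (9.05 to 15.2). An exact two-sided binomial test of the counts of each gene, with Benjamini-Hochberg adjustment over the 384 detected genes, called all 3. It also called 65.1% of all detected genes, 34.1% as higher in replicate 1 and 31.0% as higher in replicate 2. The test compares these libraries and not conditions, with counting error alone, and no p-value is given for the members because they were picked with these counts known. The median absolute difference over detected genes was 1.36-fold, and 8.33% of them were at least 2-fold higher in replicate 1.

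The Mir26a genes held the 2 largest differences of all 384 detected genes, in either direction. Mir674 followed at 4.59-fold and Mir140 at 3.99-fold, both higher in replicate 1, and the largest difference the other way was 4.25-fold. Mir26b ranked 16 among genes higher in replicate 1. With a minimum of 1 count in each library in place of 10, which tests 597 genes, Mir26a-1 and Mir26a-2 ranked 1 and 2 and Mir26b ranked 46. With no minimum and 0.5 added to each count, which takes in 752 genes, many with few counts, Mir26a-1 ranked 1, Mir26a-2 ranked 10 and Mir26b ranked 101. With a minimum of 50, Mir26a-1 is not tested because it had 39 counts in replicate 2, and Mir26a-2 ranked 1. With total counts in place of TMM, the folds were 2.06 for Mir26b, 24.8 for Mir26a-1 and 9.36 for Mir26a-2.

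**Figure D4:**
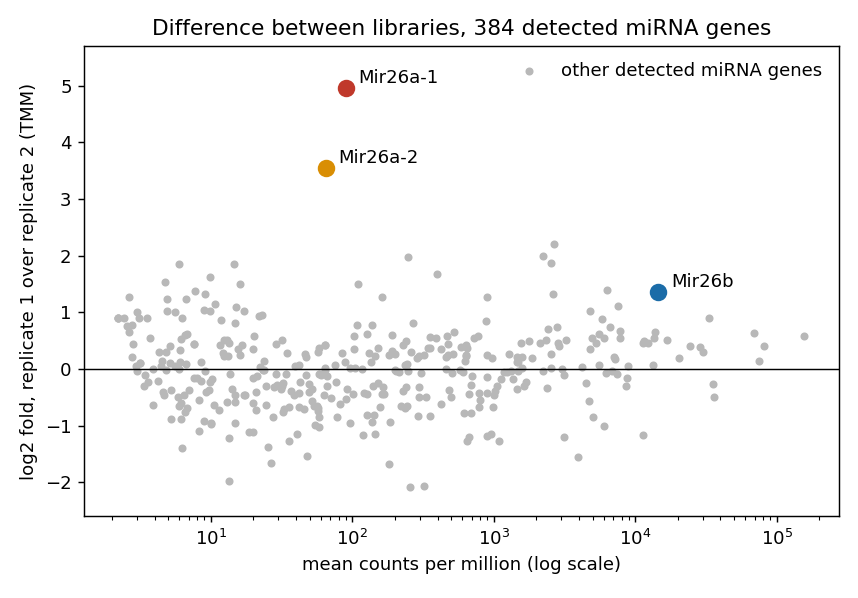
Log2 fold of replicate 1 over replicate 2 (TMM) against mean CPM on a log axis for the 384 detected microRNA genes, with the mir-26 genes coloured. Mir26a-1 (4.95) and Mir26a-2 (3.54) lie above every other gene, and Mir26b (1.36) lies within the upper part of the cloud at a far higher level.

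Other genes with sequence in common had a median absolute difference between the libraries like that of genes without it, while their signed medians differed. The Mir26a genes had the largest differences of all detected genes, so the maximum of any other group is necessarily smaller. Apart from the mir-26 genes, 84 detected genes had a stretch of 20 bases or more in common with another hairpin. Their median absolute difference was 1.36-fold and their largest difference toward replicate 1 was 3.62-fold, for Mir9-1. The 297 genes without such a stretch had a median absolute difference of 1.36-fold and a maximum toward replicate 1 of 4.59-fold. The median log2 fold of replicate 1 over replicate 2 was 0.112 for the 84 genes and -0.0135 for the 297. Of the 84, 36 had a call toward replicate 1 and 21 toward replicate 2, and of the 297, 92 and 98 did, beside 34.1% and 31.0% of all detected genes. Among 43 other detected genes with a mature strand that another gene also makes, differences reached 3.62-fold toward replicate 1 and 3.14-fold toward replicate 2. Reads that mapped to several places made up 51.5% of replicate 1 and 46.7% of replicate 2, and their part in the Mir26a difference was not tested.

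No detected gene outside the family lay close to the Mir26a genes in both libraries. The Mir26a genes had the largest differences of all detected genes, so some distance to every other detected gene follows from that. Likeness was measured as the distance between genes in log2(CPM + 1) over the 2 libraries. Only the 384 detected genes were searched, so genes with fewer than 10 counts in either library were left out. The genes nearest to Mir26b were Mir191 (0.497), Mir151 (0.577) and Mir137 (0.672), the last a neuronal microRNA with 12852 and 11601 CPM. The nearest to Mir26a-1 was Mir677 at a distance of 2.88, followed by Mir3083 (2.91) and Mir10b (2.93). The nearest to Mir26a-2 were Mir677 (2.09), Mir193a (2.12) and Mir3083 (2.14). Mir677 had 27.9 CPM in replicate 1 and 18.0 in replicate 2. Even the nearest detected gene thus had a lower level in replicate 1 and a higher one in replicate 2 than either Mir26a gene.

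Of the detected genes, 197 lie inside a protein-coding gene on the same strand, as the mir-26 genes do. Mir26b ranked 6 of these by mean CPM, below Mirlet7g, Mir139, Mir744, Mir23b and Mirlet7e, and the Mir26a genes ranked 87 (Mir26a-1) and 92 (Mir26a-2). The median log2 fold of the 197 genes was -0.02, beside 0.01 for all detected genes.

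Other microRNA genes in introns of paralogous protein-coding genes also had copies with unequal counts. Reads that mapped to several places are missing from these counts too. The count of a gene is therefore not the level of a mature strand that several genes make. The Mir26a genes had the largest differences between libraries of all detected genes, so those of the listed genes were necessarily smaller. Of 10 listed, 8 were detected, with 5 calls toward replicate 1, 1 toward replicate 2 and 2 not called, beside 34.1% and 31.0% of all detected genes in these directions, and their median log2 fold toward replicate 1 was 0.39 beside 0.01 for all genes tested. With total-count scaling, which moves the median of all genes to -0.31, 3 were called higher in replicate 1 (19.8% of all genes) and 4 in replicate 2 (50.8%). In the pantothenate kinase genes, Mir107 of Pank1 had 3479 and 3040 CPM, Mir103-2 of Pank2 had 23.1 and 35.2 CPM and Mir103-1 of Pank3 had 2.93 and 2.14 CPM. Mir103-1 and Mir103-2 were not called under TMM, at 1.70-fold toward replicate 1 (adjusted p = 0.252, exact binomial test) and 1.22-fold toward replicate 2 (adjusted p = 0.182). The neuronal pair Mir128-1 of R3hdm1 (12185 and 14432 CPM) and Mir128-2 of Arpp21 (2487 and 2590 CPM) was 1.05-fold and 1.196-fold higher in replicate 1 with TMM, a direction that flips with total counts. In the axon guidance genes, Mir218-2 of Slit3 had 422.5 and 360.4 CPM and Mir218-1 of Slit2 had 20.8 and 43.8 CPM. Mir499 of the myosin gene Myh7b had 46 and 34 counts, 2.51-fold higher in replicate 1. Mir208a and Mir208b, of the heart myosin genes Myh6 and Myh7, missed the minimum with 6 and 25 and with 2 and 16 counts.

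Mir101a and Mir101b are known like miR-26 to repress Ezh2. They are 2 genes of a longer list whose other members are not reported here, so no direction is given for that list. Mir101a had 180.7 CPM in replicate 1 and 399.4 in replicate 2, and Mir101b had 661.2 and 1316 CPM. They were 1.78-fold and 1.60-fold higher in replicate 2, and both were called there with TMM (31.0% of all genes) and with total-count scaling (50.8%). These values describe 2 libraries and were not tested as a set.

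**Figure D5:**
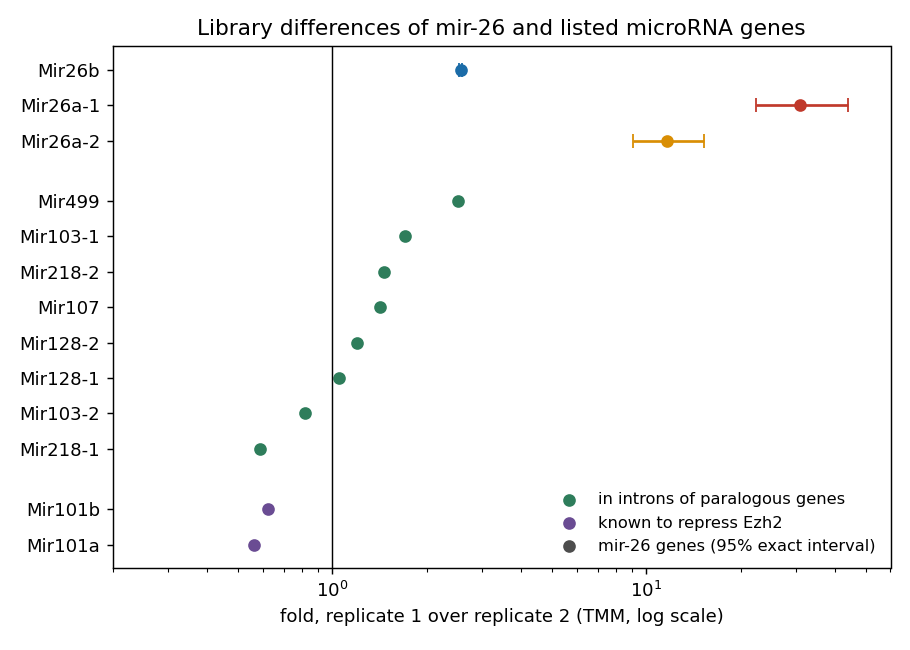
Fold of replicate 1 over replicate 2 (TMM, log axis) for the mir-26 genes with exact 95% intervals, and for detected microRNA genes in introns of paralogous genes and the Mir101 genes as points without error bars. Mir26a-1 (30.9) and Mir26a-2 (11.7) lie to the right of every other gene shown, Mir26b (2.56) lies beside Mir499 (2.51), and both Mir101 genes lie left of 1.

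Replicate 1 had 10594081 reads, 3758318 of them counted on the sense strand, and replicate 2 had 16131923 and 5598792. None of the 3 mir-26 genes had an opposite-strand count. Neuronal markers (8 of 12 detected) summed to 50948 and 52470 CPM, with replicate 1 given first. Mir124a-1, Mir124a-2, Mir124a-3 and Mir9-2 missed the minimum, in counts that leave out reads mapped to several places. Liver Mir122 had 23.9 and 47.5 CPM. The muscle markers (1 of 5 detected) had 52.1 and 79.7 CPM and the red cell markers (2 of 2 detected) 52.4 and 77.0 CPM. Choroid plexus markers (3 of 4 detected) summed to 851 CPM in replicate 1 and 1495 in replicate 2, endothelial Mir126a had 11853 and 10726 CPM, and the microglia and leukocyte markers (3 of 3 detected) 811.5 and 761.6 CPM. The part of tissue composition in the mir-26 differences was not tested.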

How the data were processed

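The deposited tables give raw counts per microRNA gene, 1 library each, on mm10 with annotation M21, per the text deposited with them. Aligner and counter: not given in the sources used here. The stranded column with the larger total was taken as sense. The 4 summary lines, unmapped, multimapping, outside features or ambiguous (64.5% and 65.3% of reads in replicates 1 and 2), stayed out of library sizes and tests. Names and hosts came from GENCODE M21, mature and hairpin sequences from RefSeq (GRCm38.p6), and 3′ UTR sites from GENCODE M21 transcripts. TMM factors came from edgeR 4.0.16 on the 384 detected genes, size factors from DESeq2 1.42.0, the exact binomial tests and intervals from scipy 1.17.1 (adjusted p under 0.05 called), folding from RNAfold 2.7.2 and alignments from Biopython 1.88. edgeR's quasi-likelihood test was not run, because 1 group of 2 libraries leaves no contrast. The binomial test was tested on simulated counts with counting error alone, so any further spread between libraries was not covered.

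Named genes were the 3 members, the detected microRNA genes in introns of paralogous genes, the Mir101 genes, the neighbours of each member in mean CPM and the 3 nearest genes in log2(CPM + 1). Mir674, Mir140 and Mir9-1, the listed genes below the minimum and the genes ranked above Mir26b were named after their values were seen. Members and lists were chosen with earlier results of these data known. Alternatives were unstranded counts, other denominators, scalings, tests, count minimums and pseudocounts, and each replicate left out.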

Additional observations from a re-analysis of the deposited data

How the results depend on the processing

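The direction and call of the 3 mir-26 ratios held with unstranded counts, total-count scaling, DESeq2 size factors and a chi-square test. Folds ranged from 2.06 to 2.56 for Mir26b, 24.8 to 30.9 for Mir26a-1 and 9.36 to 11.7 for Mir26a-2. The number of genes called (250) lay between 221 and 271 over 7 alternatives, with 28.0% of calls higher in replicate 1 under total-count scaling against 52.4%. Mean CPM moved by construction with the denominator. Per 1000000 of all reads, Mir26b had 5128, and without the 10 most abundant genes Mir26b had 34075, Mir26a-1 had 213 and Mir26a-2 had 153. Leaving out each replicate in turn gave 9522 to 19595 CPM for Mir26b, 6.97 to 172.9 for Mir26a-1, 12.5 to 117.1 for Mir26a-2, and 98.5 to 99.8% for the share of Mir26b. With a pseudocount of 10, 1 of the 3 genes nearest to Mir26a-1 was kept. The 39 counts of Mir26a-1 in replicate 2 limit the precision of its ratio. No paired analysis was possible because the 2 libraries form 1 group.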
